A study of Mus musculus with 12 samples.

Results

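Skin dendritic cells take up antigen and carry it to the lymph node. The genes described here are 10 that mark these cells in the mouse, Cd207, Epcam, Itgax, Xcr1, Clec9a, Flt3, Zbtb46, Ccr7, Cd86 and Cd209a. They were chosen as known markers, by a rule that uses gene symbols and no measured value, though with earlier results of these data known, and each was matched to 1 row of a table of 50684 genes. All 10 passed the filter on low counts, which left 19408 genes to test.

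The samples were ears of female C57BL/6 mice, 8 weeks old, injected intradermally with PBS, with IL-17A, with IL-36γ, or with IL-17A + IL-36γ, at 1 µg in a volume of 5 µl. The sample labels give this amount for each cytokine and the study's methods give it per ear, so the total dose of the combination is uncertain. Strain, sex, age, route and the PBS vehicle were shared by all groups, and no group is labelled as carrying an altered gene. By the study's methods, treatment ran over 4 consecutive days before the ears were collected. RNA of a part of the ear was sequenced on day 4 from 3 of the 5 mice in each of the 4 groups, which gave 12 libraries. The comparisons ask what each cytokine and the pair did to the RNA of the ear, against PBS and against each other.

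Langerhans cells are the dendritic cells of the epidermis. They carry langerin, the product of Cd207, and EpCAM, the product of Epcam. The dermis holds conventional dendritic cells of type 1 (cDC1), which carry XCR1 and CLEC9A and cross-present antigen, and of type 2 (cDC2), which mainly prime helper T cells. Activated cells of each kind raise co-stimulatory molecules such as CD86 and, through CCR7, follow chemokines into lymphatic vessels.

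The 2 genes of the set with the clearest change were Cd207, which fell with IL-36γ, given alone or with IL-17A, and Ccr7, which rose under both of these treatments. Zbtb46, a transcription factor of conventional dendritic cells, fell less and after the combination. Other members, Epcam and Itgax among them, passed no test against PBS in the main fit of all 12 libraries. Clec9a, Xcr1, Flt3 and Cd86 passed by the adjusted p under some other settings, as given below. IL-17A alone left Cd207 at the level of PBS. In bulk RNA, fewer cells of a type and less RNA per cell cannot be told apart, and this holds for every value below.

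The RefSeq promoter windows of Cd207 and Zbtb46 are shown because these 2 members fell. They are RefSeq sequences of GRCm38.p6, 300 bases long, from 250 bases before to 50 bases after the start site, and written on the minus strand, from which both genes are read. Capitals mark matches to the AP-1 motif TGANTCA and, in Cd207, to the PU.1 core GAGGAA, read here on the other strand. The Cd207 window is chr6:83677808-83678107. That of Zbtb46 is chr2:181424339-181424638, where the RefSeq start lies 35038 bases downstream of the start of the gene in the GENCODE annotation. By that annotation this window lies inside the gene. The letters before its start site end like an intron, so it may not be a promoter.
Cd207: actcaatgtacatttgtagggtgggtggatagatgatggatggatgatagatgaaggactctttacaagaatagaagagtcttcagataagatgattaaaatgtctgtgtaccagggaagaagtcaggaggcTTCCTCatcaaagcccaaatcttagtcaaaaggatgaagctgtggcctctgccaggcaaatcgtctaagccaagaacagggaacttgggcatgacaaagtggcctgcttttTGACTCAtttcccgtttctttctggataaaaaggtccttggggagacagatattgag
Zbtb46: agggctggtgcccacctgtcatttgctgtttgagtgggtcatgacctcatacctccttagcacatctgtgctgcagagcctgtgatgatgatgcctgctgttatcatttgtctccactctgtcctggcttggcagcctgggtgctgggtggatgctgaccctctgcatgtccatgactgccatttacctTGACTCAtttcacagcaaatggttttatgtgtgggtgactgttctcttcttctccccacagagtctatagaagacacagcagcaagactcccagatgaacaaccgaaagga

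Promoter windows of 8 of the 10 members were matched, those of Ccr7 and Cd86 not. The AP-1 motif, which reads the same on both strands, began at -7 from the start site in Cd207, at -61 in Zbtb46 and at -56 in Itgax. These are 3 of 8 members, and 7.81% of 32851 promoters of the same length hold it. The match in Zbtb46 is counted here although its window lies inside the gene by GENCODE. GAGGAA was in 1 of the 8, at -118 in Cd207, and in 28.3% of all promoters. The composite motif of ETS and IRF factors was found at -9 in Cd209a and in 2.72% of all promoters. The RUNX motif TGTGGT was found in Itgax, and 16.8% of all promoters hold it. Both strands were searched for each motif, and the matches are a description of these letters, not of binding.

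Levels are in CPM, which sets the counts of a gene against the TMM-scaled total of its library, and means are ± SD of 3 mice. Groups were compared on the counts by edgeR (quasi-likelihood test), with all 12 libraries in the same fit. A gene was called at an adjusted p below 0.05 together with an absolute log2 fold change above 1. Where a gene passed by the adjusted p alone, this is said. The total of counts per library lay between 25293468 and 34759293. Separate mice were sequenced, and pairs of libraries of a group differed well beyond counting error. PBS replicate 1 held less RNA of skeletal muscle than the other PBS libraries, 127 against 1440 and 1729 CPM summed over 6 genes, so changes of a call without it are given beside the result.

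Of the 10 members, 0 were called after IL-17A against PBS with edgeR, 0 by DESeq2 and 0 at an unadjusted p below 0.05. Among all genes tested, 1.07% were called as raised and 1.03% as lowered in this comparison, and 7.44% and 3.49% by the adjusted p alone. After IL-36γ, 1 member was called as raised and 1 as lowered, beside 5.11% and 1.98% of all genes, and the adjusted p alone, which 17.3% and 11.1% of all genes passed in the 2 directions, gave the same counts. After IL-17A + IL-36γ, again 1 was raised and 1 lowered, where 7.35% and 6.06% of all genes were called. The adjusted p alone added Zbtb46 as lowered, at a background of 23.7% raised and 20.9% lowered. The median of the members on the log2 scale against PBS was 0.04 with IL-17A, 0.24 with IL-36γ alone and -0.16 under the combination, beside 0.04, -0.02 and -0.03 for all genes. With 10 members, a count of 1 says little against these shares, and what the set shows lies in its single genes. The 3 comparisons use the same 3 PBS libraries.

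**Figure D1:**
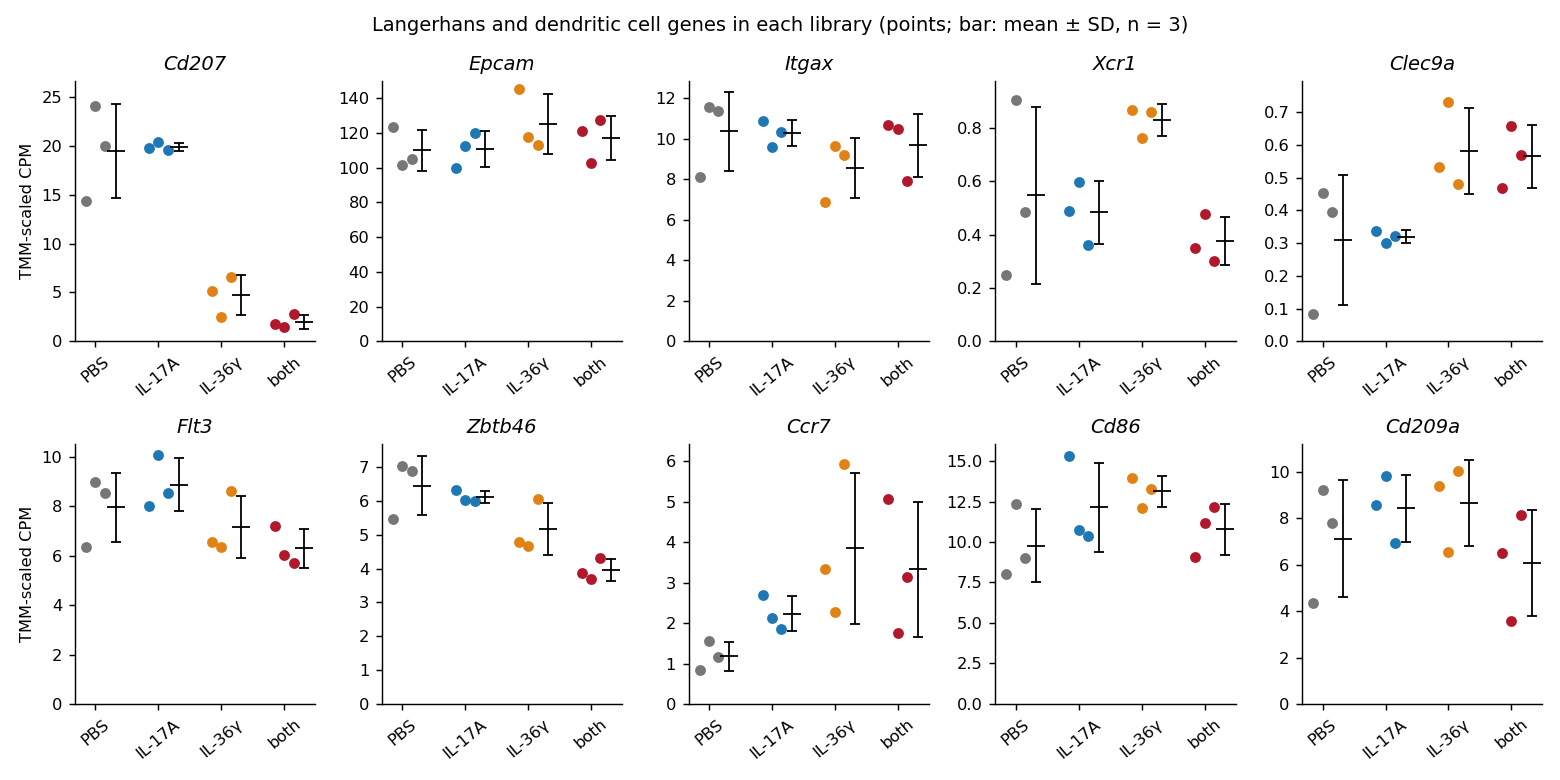
Expression of each member (vertical axis, TMM-scaled CPM, from 0) in the 12 libraries, by treatment (horizontal axis, where "both" is IL-17A + IL-36γ); points are mice and bars mark the mean ± SD of 3. Cd207 lies between 14.4 and 24.1 in PBS and between 1.43 and 2.78 after both cytokines, and Ccr7 is higher in every treated library than in any PBS library.

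Cd207 encodes langerin, a C-type lectin that forms the Birbeck granules of Langerhans cells. The gene lies on the minus strand of chromosome 6, chr6:83671215-83677857 in GRCm38, with 6 exons in 1 annotated transcript. The PBS libraries held 14.4, 24.1 and 20.04 CPM (521, 850 and 661 counts). After IL-17A the values were 19.8, 20.4 and 19.6 CPM, all within the range of PBS. After IL-36γ they were 5.16, 2.47 and 6.58 CPM, and after IL-17A + IL-36γ 1.80, 1.43 and 2.78 CPM (46, 39 and 83 counts). Each of these 6 libraries lay below every PBS and every IL-17A library, while the 2 treatments with IL-36γ overlapped each other.

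In the test, Cd207 fell by 2.05 ± 0.31 (SE) on the log2 scale after IL-36γ, which is 4.14-fold, with an adjusted p of 0.000736. After the combination it fell by 3.28 ± 0.33, which is 9.68-fold, with an adjusted p of 3.25e-05. Ordered by log2 fold change from the most lowered, it was number 39 of 19408 genes after IL-36γ and number 27 after the combination. IL-17A gave 0.03 ± 0.29, with a 95% interval from -0.59 to 0.65. With each library left out in turn the difference lay at -2.36 to -1.73 for IL-36γ and at -3.59 to -3.09 for the combination, and each of these fits called it.

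The direct comparisons place Cd207 in the same order. It was the 1 member called as lowered between IL-36γ and IL-17A, -2.08 ± 0.31 with an adjusted p of 0.0041, where 0.366% of all genes were lowered and 1.25% raised. It was also the 1 called between IL-17A + IL-36γ and IL-17A, -3.31 ± 0.34 with an adjusted p of 0.000144, beside 4.49% of all genes lowered and 4.46% raised. By the adjusted p alone, Zbtb46 and Flt3 were lowered there too, which makes 3 of 10 members, where 17.7% of all genes were lowered and 15.1% raised.

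Between IL-17A + IL-36γ and IL-36γ alone, 0 members were called by edgeR, 3 were lowered at an unadjusted p below 0.05, and DESeq2 called 1. Of all genes 0.0103% were called as lowered and 0% as raised. Cd207 differed by -1.23 ± 0.34, with a 95% interval from -1.97 to -0.49 and an adjusted p of 0.153. DESeq2 gave -1.23 with an adjusted p of 0.0171. Without the filter on low counts edgeR gave -1.24 and 0.038, and without IL-36γ replicate 2 it gave -1.54 and 0.0314, so that the call of a further fall of Cd207 rests on the settings.

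An interaction term asked whether the 2 cytokines together changed a gene by more or less than the sum of their single log2 changes. No member passed its adjusted p with edgeR or with DESeq2, and 2, Cd207 and Cd86, lay below 0 at an unadjusted p below 0.05. The share of all genes called was 0.129% above 0 and 0.423% below 0. The value of Cd207 was -1.26 ± 0.44 with an adjusted p of 0.13. That of Cd86 was -0.59 ± 0.26 with an adjusted p of 0.207.

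Epcam encodes the adhesion molecule EpCAM, which Langerhans cells carry and which keratinocytes of the hair follicle also make. It is at chr17:87635979-87651129 on the plus strand. Its levels were 110 ± 12 CPM in PBS, and the treated groups held means between 111 and 125 CPM, with all groups overlapping PBS. IL-17A gave a log2 difference from PBS of 0.01 ± 0.12, IL-36γ one of 0.19 ± 0.12 and the combination one of 0.09 ± 0.12. The last has a 95% interval from -0.17 to 0.35 and does not reach a fall of the size measured for Cd207.

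Per kb of exon, which allows genes to be compared, Epcam had the highest level of the set in every group, 50.1 ± 5.4 CPM per kb in PBS. Cd207 was second in PBS with 12.8 ± 3.2 CPM per kb and second after IL-17A with 13.1 ± 0.3. Its rank was 4 after IL-36γ, at 3.11 ± 1.37, and 6 after the combination, at 1.31 ± 0.46. Cd209a and Cd86 followed in PBS at 4.50 ± 1.59 and 2.67 ± 0.62 CPM per kb, and their ranges overlapped. Clec9a and Xcr1 were the lowest in PBS, 0.0941 and 0.123 CPM per kb, and did not differ beyond their spread.

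Itgax encodes CD11c, an integrin chain of most dendritic cells and of some macrophages. In PBS it lay at 8.11, 11.6 and 11.4 CPM, and each treated group overlapped this range. Its log2 difference was -0.01 ± 0.17 with IL-17A, -0.27 ± 0.17 with IL-36γ alone and -0.10 ± 0.17 when both were given, and none passed the test. Of the stretches of 76 bases in its transcripts, the read length used, 4.91% also occur in its neighbour Itgad.

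Zbtb46 encodes a transcription factor that separates conventional dendritic cells from monocytes and macrophages, although endothelial cells express it too. It held 5.45, 7.02 and 6.88 CPM in PBS, and 6.31, 6.02 and 5.99 after IL-17A. After IL-36γ there were 4.79, 4.66 and 6.06 CPM, and after IL-17A + IL-36γ 3.86, 3.69 and 4.31. The 3 libraries of the combination lay below all 9 others. The fall after the combination was 0.70 ± 0.14 on the log2 scale, or 1.63-fold, with an adjusted p of 0.00212, which passed by the adjusted p alone. After IL-36γ the difference was -0.32 ± 0.14 with an adjusted p of 0.107. Under the other settings that adjusted p lay between 0.0242 and 0.292. With each library left out the value after the combination stayed between -0.81 and -0.63.

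Flt3 encodes the receptor of the growth factor FLT3L, on which conventional dendritic cells depend. It had 6.37, 8.98 and 8.52 CPM in PBS and 7.18, 6.04 and 5.69 after IL-17A + IL-36γ, with overlap. The log2 difference was -0.34 ± 0.17 with an adjusted p of 0.125, which lay between 0.0308 and 0.357 under the other settings. Against IL-17A alone, whose libraries lay higher at 8.002, 10.1 and 8.53 CPM, the log2 difference was -0.50 ± 0.17. It passed by the adjusted p alone at 0.0423.

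Xcr1 encodes the chemokine receptor of cDC1 and was among the lowest genes of the set. PBS held 9, 32 and 16 counts, IL-17A 13, 18 and 9, IL-36γ 26, 25 and 25, and the combination 9, 13 and 9. PBS spans the whole range of the other groups, and no comparison called Xcr1. The log2 difference from PBS was 0.60 ± 0.37 after IL-36γ and -0.54 ± 0.42 after both. Without PBS replicate 2 the first became 1.17, with an adjusted p of 0.0354, and without PBS replicate 1 it was 0.24, so 1 control library decides it. The second lay between -0.89 without PBS replicate 1 and 0.05 without PBS replicate 2. Its adjusted p with a library left out was 0.0487 at the lowest. The libraries of IL-36γ and of the combination did not overlap, and that difference was -1.14 ± 0.40 with an adjusted p of 0.222.

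Clec9a, which encodes a receptor of cDC1 for dead cells, was as scarce. It had 3, 16 and 13 counts in PBS and 9, 9 and 8 after IL-17A. After IL-36γ it had 16, 24 and 14 and after both 12, 18 and 17. In CPM the 6 libraries with IL-36γ, at 0.468 to 0.731, all lay above PBS, at 0.0831 to 0.453. The log2 differences were 0.92 ± 0.42 and 0.87 ± 0.42, with adjusted p-values of 0.115 and 0.113, so neither was called. DESeq2 gave 0.93 and 0.89, with adjusted p-values of 0.0117 and 0.0154, which pass by the adjusted p alone. Without PBS replicate 1 the values of edgeR were 0.46 and 0.42, and without PBS replicate 2 they were 1.31 and 1.27, none of them called. The exons of Clec9a share 184 bases, 5.59% of their length, with Clec1b on the same strand.

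**Figure D2:**
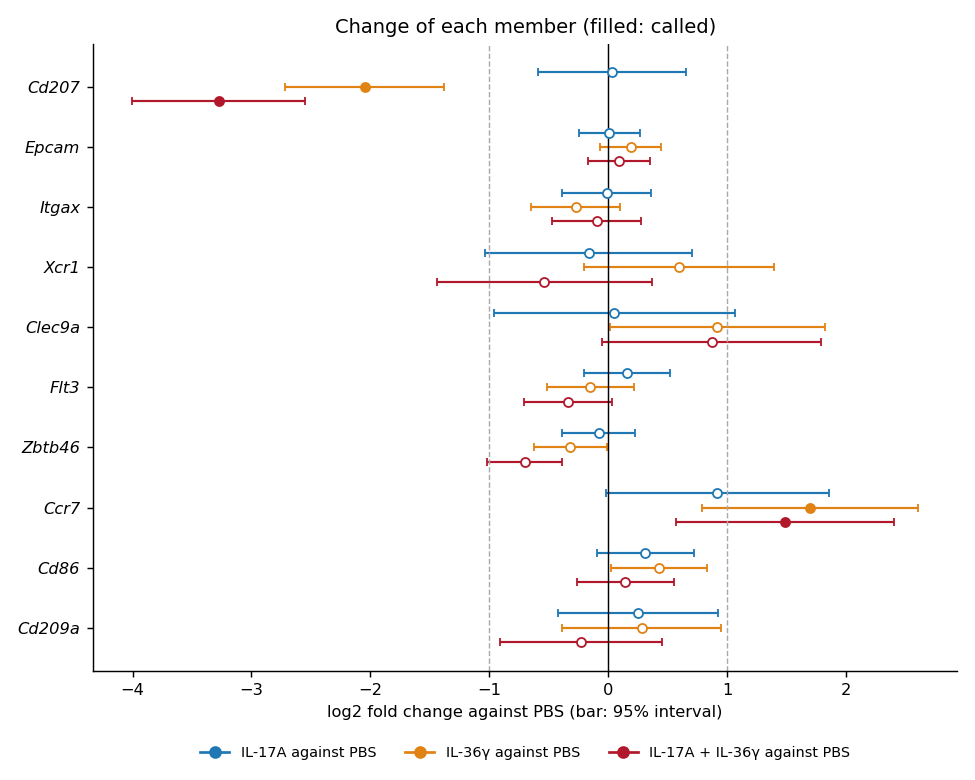
Log2 fold change of each member against PBS (horizontal axis) for the 3 treatments, with 95% intervals from the edgeR fit as bars and filled points where the change was called; dashed lines mark a log2 value of -1 and 1. Cd207 is filled at -2.05 and -3.28, Ccr7 at 1.70 and 1.49, and the other members are open.

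Ccr7 encodes the receptor that guides maturing dendritic cells, and also naive and central memory T cells, along CCL19 and CCL21. The gene lies at chr11:99144196-99155077 on the minus strand. PBS held 30, 55 and 38 counts, or 0.831, 1.56 and 1.15 CPM. IL-17A gave 2.71, 2.13 and 1.85 CPM, IL-36γ 3.33, 2.28 and 5.92, and IL-17A + IL-36γ 5.07, 1.76 and 3.14. Every one of the 9 treated libraries lay above every PBS library, and the treated groups overlapped each other.

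Ccr7 rose by 1.70 ± 0.42 on the log2 scale after IL-36γ, which is 3.24-fold, with an adjusted p of 0.0113. After the combination it rose by 1.49 ± 0.42, or 2.8-fold, with an adjusted p of 0.0133. This call was lost without IL-17A + IL-36γ replicate 1, where the value was 1.06 and the adjusted p 0.0714. IL-17A gave 0.92 ± 0.43 with an adjusted p of 0.169. The combination differed from IL-36γ by -0.21, with a 95% interval from -1.06 to 0.64.

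Cd86 encodes a co-stimulatory ligand of CD28 and CTLA4 on antigen-presenting cells, B cells and macrophages included. It held 8.0, 12.3 and 9.002 CPM in PBS, 15.3, 10.8 and 10.3 after IL-17A, 14.0, 12.1 and 13.3 after IL-36γ, and 9.05, 11.2 and 12.1 after both. All groups overlapped PBS. The log2 difference was largest after IL-36γ, 0.43 ± 0.19 with an adjusted p of 0.103, and was 0.14 ± 0.19 after the combination. Under the other settings the adjusted p after IL-36γ lay between 0.036 and 0.273.

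Cd209a encodes a lectin of the DC-SIGN family, found on monocyte-derived and type 2 dendritic cells. It lay at 4.35, 9.23 and 7.79 CPM in PBS and at 6.52, 3.59 and 8.13 after the combination. The difference was -0.23 ± 0.31, and those of IL-17A and IL-36γ were 0.25 and 0.28, none of them called. Of the 6 other Cd209 genes, 1 was raised after IL-36γ, where 5 of 6 lay above 0 with a median of 0.52. This was Cd209f, named after its values were seen, which went from 6.17 to 6.73 CPM in PBS to 12.2 to 13.9 CPM. It rose by 1.03 ± 0.22 with an adjusted p of 0.00577, a call that was lost without IL-36γ replicate 3 or with scaling by library size only. Without PBS replicate 1, 1 of the 6 was also lowered there. After the combination 5 of the 6 lay below 0, and 1 was lowered, Cd209c, at -1.53 ± 0.43 with an adjusted p of 0.013. Its libraries overlapped PBS, and the adjusted p was between 0.0513 and 0.0545 without PBS replicate 2 or 3 or without IL-17A + IL-36γ replicate 1 or 2.

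Genes around Cd207 in the biology of Langerhans cells were given by a list of 14 on their maintenance and adhesion. After the combination 2 of them rose and 2 fell, with a median of -0.06, and 1 rose without IL-17A + IL-36γ replicate 2. Il34, the keratinocyte cytokine that keeps Langerhans cells alive, was at 33.6, 34.5 and 36.0 CPM in PBS and at 17.3, 14.0 and 16.7 after the combination. It fell by 1.12 ± 0.12 on the log2 scale with an adjusted p of 4.23e-05, and by 0.66 ± 0.12 after IL-36γ, which passed by the adjusted p alone at 0.00206. IL-17A gave -0.31 ± 0.12 with an adjusted p of 0.0964. Csf1r, the receptor of IL-34, which macrophages and monocytes also carry, went the other way. It rose by the adjusted p alone in all 3 treatments, by 0.48, 0.72 and 0.56, with adjusted p-values of 0.0132, 0.000132 and 0.000214.

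H2-M2, a non-classical MHC class I gene, had 4.60, 9.63 and 9.12 CPM in PBS and 1.60, 0.914 and 1.91 after the combination, with no overlap. It fell by 2.39 ± 0.41 on the log2 scale with an adjusted p of 0.000738. After IL-36γ it differed by -1.04 ± 0.38 with an adjusted p of 0.0582. The settings decide this call, which was made without PBS replicate 1 (-1.31, adjusted p of 0.0143), without IL-36γ replicate 3 (-1.37, adjusted p of 0.0325), by DESeq2 (adjusted p of 0.0311), with library size only (adjusted p of 0.0345) and with no filter (adjusted p of 0.0245). Cd24a, which keratinocytes and many leukocytes also express, rose after the combination by 1.17 ± 0.15. After IL-36γ it rose by 0.97 by the adjusted p alone, at 0.000729. That rise was called without PBS replicate 1 (1.11) or IL-36γ replicate 3 (1.12).

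Ligands and partners of the members changed in both directions. Xcl1, the ligand of XCR1, made by natural killer and T cells, had 51, 55 and 55 counts in PBS and 6, 11 and 9 after the combination. It fell by 2.29 ± 0.24 on the log2 scale with an adjusted p of 3.97e-05, and by 1.65 ± 0.22 after IL-36γ with an adjusted p of 0.000392. IL-17A gave 0.59 ± 0.19 with an adjusted p of 0.0642, with its 3 libraries above PBS. Ccl19, a ligand of CCR7, differed from PBS by 0.32, 0.06 and -0.23, none called. Ccl21a, the other ligand gene, was listed with 0 counts in every library, and 60.9% of the 76-base stretches in its transcripts occur in Ccl21b and 3 further copies, so its level is uncertain.

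Of the partners of CD86, Ctla4, the inhibitory receptor of activated and regulatory T cells, rose by 2.20 ± 0.30 after IL-36γ and by 2.47 ± 0.30 after the combination, with adjusted p-values of 0.000417 and 8.75e-05. Its libraries in these groups held 3.06 to 4.21 CPM against 0.415 to 0.991 in PBS. Cd28, the activating receptor, passed by the adjusted p alone after IL-17A, at 0.70 ± 0.19 with an adjusted p of 0.0394. Itgb2, the integrin chain that pairs with CD11c and with other leukocyte chains, rose by 1.41 ± 0.14 after IL-36γ and by 1.56 ± 0.14 after both, while Itgax did not pass. Flt3l, the ligand of FLT3, fell by 0.60 ± 0.17 after the combination by the adjusted p alone, at 0.0128. Among 7 growth factors and receptors, Csf2rb, the receptor chain of GM-CSF and IL-3, was the 1 called there, at 1.21 ± 0.16, and 2 were called without IL-17A + IL-36γ replicate 2 or PBS replicate 2.

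**Figure D3:**
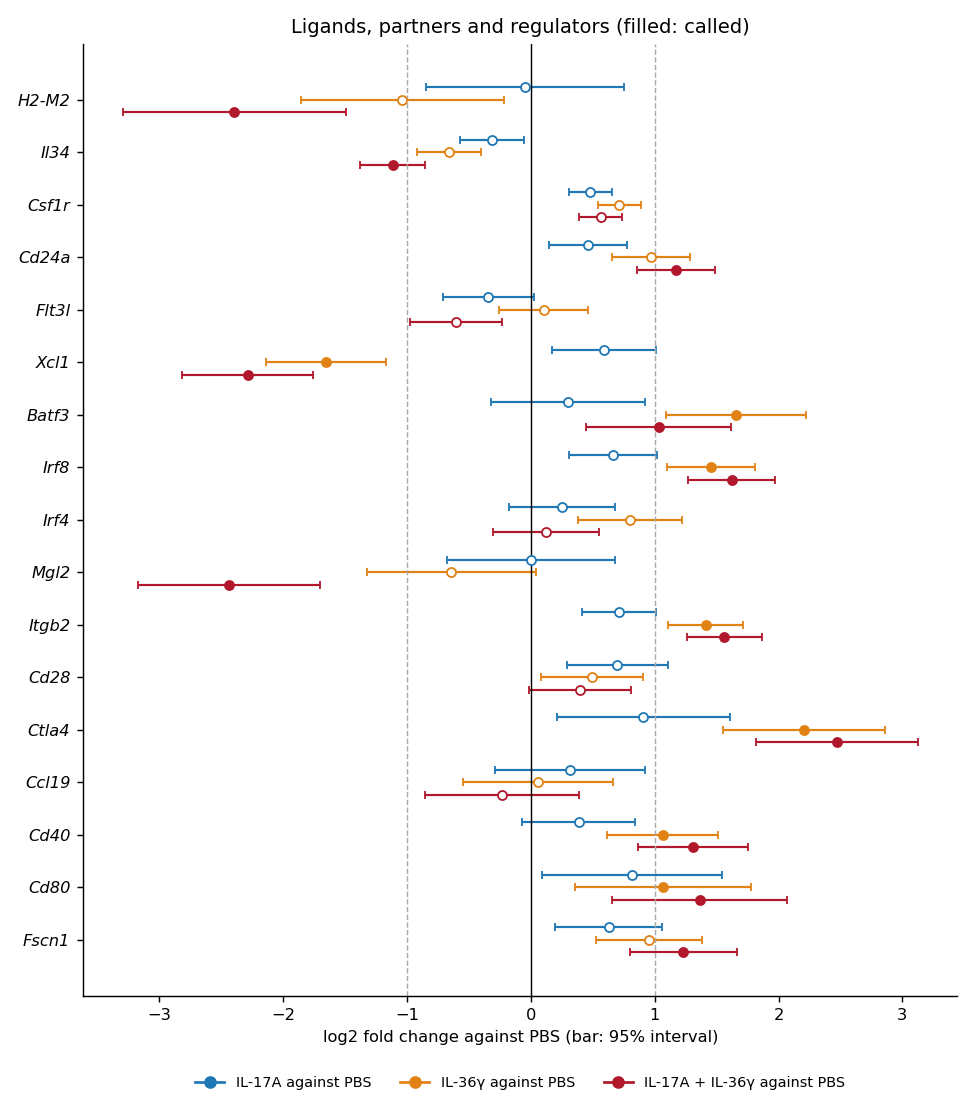
Log2 fold change against PBS (horizontal axis, with 95% intervals from the edgeR fit) of ligands, partners and regulators named in the text, for the 3 treatments; filled points were called and dashed lines mark a log2 value of -1 and 1. Xcl1, Mgl2 and H2-M2 lie lowest after IL-17A + IL-36γ, at -2.29, -2.43 and -2.39, and Ctla4 lies highest at 2.47.

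Genes of the cDC1 program, to which Xcr1 and Clec9a belong as receptors, went in both directions. Of 10 other genes of this program, 3 were raised after IL-36γ and 4 after the combination. The count after the combination was 2 without PBS replicate 1 and 1 with scaling by library size only, where Batf3, Wdfy4 and Naaa gave 0.88, 0.89 and 0.95. With no fold threshold the calls of the combination came to 5 raised genes and 3 lowered ones, and those of IL-36γ to 5 and 2. Of all genes, 23.7% and 20.9% passed so after the combination, and 17.3% and 11.1% after IL-36γ. The 3 lowered genes of the combination, named after their values were seen, were Cadm1, an adhesion molecule, at -0.41 ± 0.07, Itgae, the integrin chain CD103 also found on T cells, at -0.40 ± 0.10, and Snx22 at -0.48 ± 0.14. Batf3, the transcription factor that cDC1 require, rose by 1.66 ± 0.26 after IL-36γ with an adjusted p of 0.000996. After the combination it rose by 1.03 ± 0.27 with an adjusted p of 0.0087, just past the fold threshold, and by 0.76 without PBS replicate 1 or 0.92 without IL-17A + IL-36γ replicate 3. Irf8, which monocytes and B cells also use, rose by 1.46 ± 0.16 and 1.62 ± 0.16. Naaa rose by 1.11 ± 0.10 after IL-36γ, or by 0.96 with library size only, which lost the call. Naaa and Wdfy4 rose by 1.09 ± 0.10 and 1.05 ± 0.18 after the combination, and Wdfy4 by 0.83 without PBS replicate 1. The median of the 10 was 0.37 after IL-36γ and 0.33 after the combination.

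The cDC2 program of 10 genes held 3 raised genes after each treatment with IL-36γ, and 1 lowered after the combination. The lowered gene was Mgl2, the lectin CD301b of dermal cDC2 and of macrophages. It had 32.2, 55.9 and 52.6 CPM in PBS, 37.0, 20.5 and 32.8 after IL-36γ and 6.44, 5.34 and 14.1 after the combination. The fall after the combination was 2.43 ± 0.34 on the log2 scale with an adjusted p of 0.000184, and the difference after IL-36γ was -0.64 ± 0.31 with an adjusted p of 0.141. Itgam, the chain CD11b of neutrophils, monocytes and macrophages as well, rose by 2.59 ± 0.25, and Clec4a4, at 0.0849 to 0.182 CPM in PBS, by 2.38 ± 0.46. Irf4, a transcription factor of cDC2 and migratory cells, rose by 0.80 ± 0.19 after IL-36γ by the adjusted p alone, at 0.0101, while the difference after the combination was 0.12 ± 0.20.

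Beside Ccr7, 16 of 18 genes of mature and migratory dendritic cells could be tested. Of these, 2 were raised after IL-36γ and 4 after the combination, with medians of 0.56 and 0.42. With no fold threshold, 7 genes stood higher than in PBS under IL-36γ alone. Under both cytokines 7 stood higher and 2 lower. The shares of all genes were 17.3% higher under IL-36γ alone, and 23.7% higher and 20.9% lower under both. Cd80, the sister ligand of Cd86, rose after the combination by 1.36 ± 0.33, Cd40 by 1.31 ± 0.21 and Fscn1, an actin-bundling protein, by 1.23 ± 0.20. The adjusted p-values were 0.00531, 0.000398 and 0.000453. After IL-36γ alone, Cd80 and Cd40 were the 2 called, at 1.07 each. Fscn1, at 0.95 in this comparison, passed by the adjusted p alone, at 0.00457. It gained a call without PBS replicate 1 (1.11) or IL-36γ replicate 1 (1.02). The call of Cd80 was lost without IL-36γ replicate 2 (0.86), PBS replicate 1 (0.88) or PBS replicate 3 (adjusted p of 0.0734), and that of Cd40 without IL-36γ replicate 1 (0.92) or PBS replicate 3 (0.96). Activated keratinocytes, macrophages and B cells can express several of these genes.

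Of 10 genes of MHC class II presentation, 1 was called as raised after the combination, Ctss, the lysosomal protease cathepsin S, at 1.33 ± 0.20. By the adjusted p alone, 4 of the 10 were lowered and 1 raised there, beside 20.9% and 23.7% of all genes. Against IL-17A alone 6 of 10 were lowered and 1 raised, beside 17.7% and 15.1%. The list summed to between 993 and 1407 CPM in PBS, 1490 and 1712 after IL-17A, 1395 and 1614 after IL-36γ, and 1017 and 1329 after the combination. Of 7 genes of plasmacytoid dendritic cells, 1 was raised after the combination, Bst2, at 2.01 ± 0.21, which is also an interferon-induced gene of many cells. By the adjusted p alone, 2 of the 7 were raised and 1 lowered there. Against IL-17A, 1 was called as raised and 1 as lowered. The full list of 8 genes summed to between 247 and 330 CPM in PBS and 201 and 260 after the combination.

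Markers of other cells moved with the treatments that changed Cd207 and Ccr7. Genes of all leukocytes were raised in 4 of 4 after IL-36γ and after the combination, and their sum went from 169 to 225 CPM in PBS to 270 to 352 after IL-17A, 443 to 522 after IL-36γ and 566 to 577 after the combination. Ptprc, Cd53 and Coro1a rose by 1.48, 1.71 and 2.05 after the combination. Cd207 thus fell while leukocyte RNA of the ear rose. Neutrophil genes were raised in 7 of 8 after IL-36γ and in 8 of 8 after the combination, with S100a8 and S100a9, which keratinocytes also make, at 8.07 and 8.11 and Ly6g at 7.33 after the combination. Their sum was 20.4 to 100 CPM in PBS, 387 to 883 after IL-17A, 2287 to 4845 after IL-36γ and 7623 to 10059 after both. In the sums that follow, the groups stand in this same order.

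Monocyte genes were raised in 6 of 6 after IL-36γ and after the combination, Ly6c2, Chil3 and Plac8 by 4.88, 3.83 and 3.68 after the combination, and their sum was 42.2 to 80.8 CPM in PBS, 120 to 171, 248 to 361 and 299 to 369. Macrophage genes were raised in 6 of 8 after IL-36γ and in 4 of 8 after the combination, Adgre1, C1qb and Mrc1 there by 1.82, 1.47 and 1.10, with sums of 496 to 588 CPM in PBS, 749 to 1083, 1159 to 1345 and 1020 to 1201. By the adjusted p alone, 6 of the 8 macrophage genes were raised and 1 lowered after the combination. The part of monocytes and macrophages in the values of Itgax, Csf1r, Irf8, Itgb2 and Cd86 was not tested.

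T cell genes, which bear on Ccr7 and Ctla4, were raised in 3 of 8 after IL-36γ and after the combination, with sums of 26 to 27.5 CPM in PBS, 29.1 to 33.9, 34 to 36.8 and 31.1 to 34.5. By the adjusted p alone, 5 of the 8 were raised and 1 lowered after the combination, beside 23.7% and 20.9% of all genes. After the combination Cd8a, Trac and Cd5 rose by 4.31, 2.18 and 1.01, and Cd5 was just past the fold threshold. Its call was lost with library size only (0.87), with no filter (0.98) and with 10 counts asked of every library (0.99). It was also lost without any of several single libraries, such as PBS replicate 2 (0.87) or IL-17A + IL-36γ replicate 1 (0.95). Of the B cell genes, Cd79b rose by 2.81 after the combination. Of the natural killer genes 3 of 4 were tested, and Ncr1 and Gzma rose by 5.15 and 4.90, with sums of 0.249 to 0.821 CPM in PBS and 2.91 to 5.71 after the combination. Their part in the rise of Ccr7 was not tested.

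The epidermis of the mouse also holds dendritic epidermal T cells with a gamma-delta receptor, which sit beside Langerhans cells. Of 5 of their genes that could be tested, 4 fell after the combination. Trgv5, Trdv4 and Trdc fell by 1.74, 1.46 and 1.17 on the log2 scale. The list summed to between 26.2 and 29.2 CPM in PBS, 23.3 and 32.1 after IL-17A, 17.8 and 20.5 after IL-36γ, and 12.4 and 13.5 after the combination. Its groups with IL-36γ thus lay below PBS in every library, as those of Cd207 did.

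Keratinocyte genes were raised in 3 of 8 after IL-36γ (5 without PBS replicate 1) and in 4 of 8 after the combination, with Krt16, Krt6a and Krt1 at 5.85, 4.27 and 4.21 after the combination and sums of 12114 to 17566 CPM in PBS, 17882 to 21171, 23065 to 31764 and 31818 to 40378. Of 8 genes of hair follicle and sebaceous gland, Krt15 was the 1 called, and fell by 1.18 after the combination. The list's sum was 1746 to 2118 CPM in PBS and 1154 to 1221 after the combination. The sum of 5 mast cell genes was 178 to 208 CPM in PBS and 187 to 193 after the combination, that of 6 lymphatic genes 162 to 193 and 128 to 135, and that of 6 muscle genes 127 to 1729 and 71.3 to 592. After the combination edgeR called 0 genes of these 3 lists, with 1, 2 and 5 lowered at an unadjusted p below 0.05, and DESeq2 called 0, 0 and 2. All 6 muscle genes were called as lowered without PBS replicate 1 or without IL-17A + IL-36γ replicate 3. The part of these shifts in the fall of Cd207 was not tested. The defining markers of every list had counts, except Ccl21a.

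**Figure D4:**
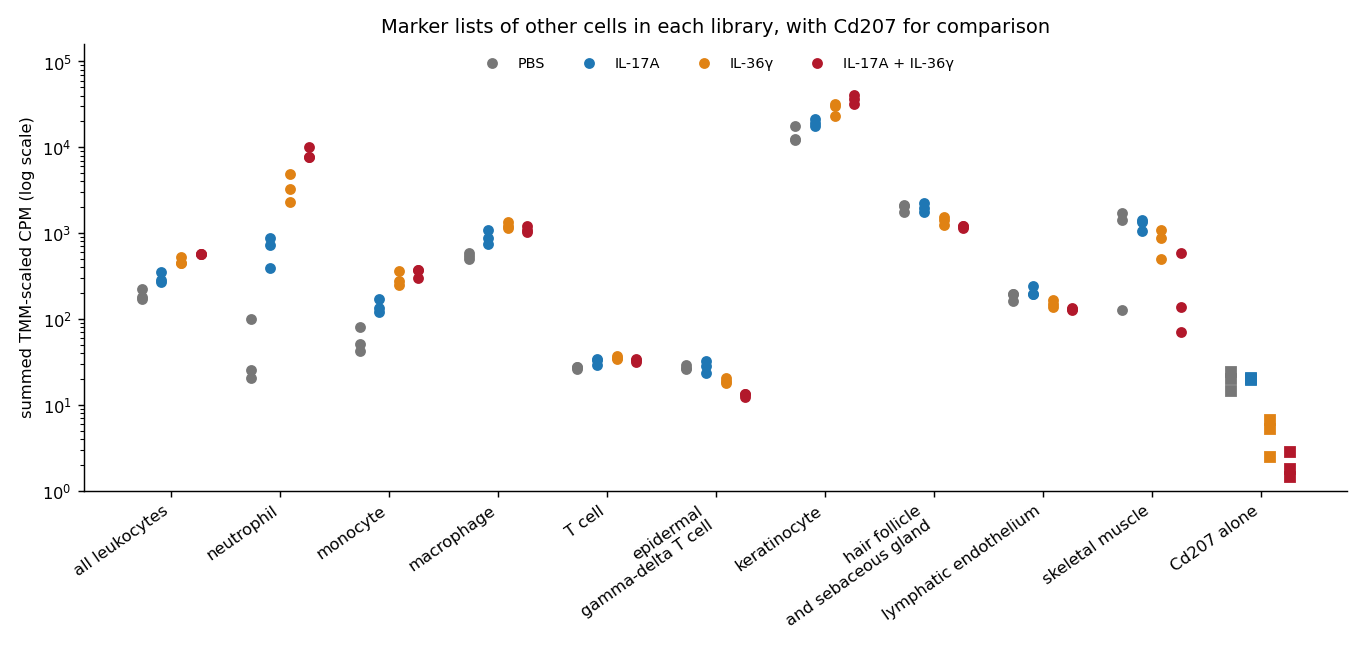
Summed TMM-scaled CPM (vertical axis, log scale) of marker lists of other cells in each of the 12 libraries, by treatment (colours), with Cd207 alone as squares on the right. The lists of leukocytes, neutrophils, monocytes and macrophages lie higher after IL-17A + IL-36γ than in PBS, while that of epidermal gamma-delta T cells lies lower, at 12.4 to 13.5 against 26.2 to 29.2 CPM.

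Over the 12 libraries, the genes whose log2 CPM was most like that of Cd207 were F830045P16Rik (Pearson r = 0.991), Ltc4s, which encodes leukotriene C4 synthase (0.991), P2rx2, an ATP-gated channel (0.988), Ccser2 (0.988) and Map1b (0.987). For Ccr7 they were Cd33 (0.971), Stab1 (0.944), Slc37a4 (0.934), Ccr8 (0.919) and Vps26c (0.904). The libraries share the 4 treatments, so that any gene that moved with them in the same steps gives a high r, and these values are a description of likeness over 12 libraries.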

How the data were processed

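Total RNA of mouse ears was prepared with a TruSeq Stranded Total RNA kit and sequenced in pairs of 76 cycles. Per the labels and the study's methods, the authors aligned reads to mm10 with STAR 2.5.2b and deposited featureCounts (Subread 1.5.1) counts per Ensembl gene, without normalization. The annotation release and strand setting are not given in the sources used here. The 5 deposited comparison tables hold fold changes and p-values from DESeq2 1.30.0, and only their gene symbols were used.

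Libraries were grouped by their labels. In R 4.3.3, edgeR 4.0.16 was applied with filterByExpr (minimum count 10), TMM and the quasi-likelihood test, with Benjamini-Hochberg adjustment over 19408 genes. The script was tested on simulated data. Alternatives were DESeq2 1.42.0, other scalings and filters, 2 groups only, no fold threshold, a replicate block and each library left out. Totals of 25293468 to 34759293 counts leave Xcr1 and Clec9a with few counts, and the test includes this counting error. Positions are from GENCODE vM21 (GRCm38).

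The members and lists were chosen with earlier results of these data known. Named were all members, 12 ligands, partners or regulators, the 3 largest called changes per list after the combination, and the 5 genes most like Cd207 and Ccr7 by Pearson correlation of log2 CPM (prior count 2). A gene that this rule would name is not reported here.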

Additional observations from a re-analysis of the deposited data

How the results depend on the processing

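The calls of Cd207 and Ccr7 against PBS kept their direction under all 20 alternatives, and Cd207 its call as well. Of 1365 values of members under the alternatives, 1357 kept their direction or stayed uncalled, 1 lost its call (Ccr7 after IL-17A + IL-36γ) and 7 gained one, with no called value reversed. The 53 changes of sign were among uncalled values. The count of members called between IL-17A + IL-36γ and IL-36γ was 0, and 1 with DESeq2, 1 with no filter on low counts, and 0 to 1 with a library left out. Between IL-17A + IL-36γ and IL-17A it was 1, and 3 with no fold threshold. Between IL-17A + IL-36γ and PBS it was 2, 3 with no fold threshold, and 1 to 2 with a library left out. Between IL-36γ and PBS it was 2, and 3 without PBS replicate 2. The cause was not tested. With scaling by library size only, the median of all genes was -0.13, -0.17 and -0.17 for IL-17A, IL-36γ and both against PBS. With TMM it was 0.04, -0.02 and -0.03. Of 6974 values of 51 other named genes, 124 lost a call, 139 gained one and none was reversed.

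With the replicate number as a replicate block, 0, 2 and 2 members were called after IL-17A, IL-36γ and both against PBS, and the block changed no count of members. Deviations of libraries with the same number correlated between -0.199 and 0.352 in 18 pairs, 9 of them over 0.1, so the numbers were not taken to pair the libraries across the 4 groups. The 3 pairs of IL-36γ with IL-17A + IL-36γ were all over 0.1 (0.128 to 0.24), and with the block 0 members were called between these groups, as without it. Depth limits Xcr1 and Clec9a, with 3 to 32 counts per library.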
